A study of Mus musculus with 16 samples.

Results

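Gpnmb, Trem2, Cd5l, Lgals3, Acp5, Atp6v0d2, Adam8 and Galnt6, named GPNMB, TREM2, CD5L, LGALS3, ACP5, ATP6V0D2, ADAM8 and GALNT6 in the deposited table, are 8 genes of lipid-laden macrophages, the foam cells of atherosclerotic lesions. They were selected from the measured values of aortic valves as foam cell genes that stood higher in mice without Apoe than in mice with it. The 8 were taken out of 20992 genes in the table, and all 8 were among the 15004 genes that passed the filter on low values (at least 1 unit in at least 4 libraries). Their differences between Apoe knockout and Apoe-intact mice are therefore given as a description without a test. The differences tested for them are those across the hypertension transgenes, the interaction and the sexes.

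RNA was sequenced from aortic valves of C57BL/6J mice in 4 groups, planned as 4 libraries each. HC mice lacked Apoe, the apolipoprotein that clears cholesterol-rich lipoproteins from plasma, and served as the hypercholesterolaemia model (4 libraries, 3 female and 1 male). HC/HT mice lacked Apoe and also carried transgenes for human renin and human angiotensinogen (3 libraries, 2 female and 1 male). HT mice carried the renin and angiotensinogen transgenes with Apoe intact and served as the hypertension model (4 libraries, 2 female and 2 male). CON mice were the controls (4 libraries, 1 female and 3 male). The 7 HC and HC/HT libraries are called knockout here and the 8 HT and CON libraries intact. The number that leads a deposited column name is lower for every knockout library than for every intact one. The sources used here do not say what these numbers stand for. Any order behind them cannot be told apart from Apoe status. The sources used here give no age, diet, transgene promoter, blood pressure or plasma cholesterol. The labels name no cell type for the knockout. The fourth HC/HT library is not analysed here.

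Macrophages that take up modified lipoproteins store the cholesterol as ester droplets, break the ester down again in lysosomes and pass cholesterol out of the cell. Foam cells of the arterial wall are known for a lysosomal and lipid-handling set of genes that includes receptors for lipid, acid hydrolases, subunits of the lysosomal proton pump and secreted lectins and glycoproteins. Some of the same genes are also used by osteoclasts, the bone-resorbing relatives of macrophages, which acidify the space beneath them with the same pump.

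All values are given in units of the deposited normalised value times 0.0980, the number that brings the median library to a total of 1000000. A single deposited count-like step is therefore worth 0.0980 units, and levels under 1 unit rest on a few such steps. The sequencing depth of the libraries is unknown, because the deposited totals are all between 10207928 and 10210305. The 4 most abundant rows took between 32.4% and 62.7% of a library. Median-of-ratios factors, a scaling by the median gene that a few such rows hardly move, ran from 0.636 to 1.34. Between 16006 and 17608 genes stood above 0 in a library. Xist was at 2321 units or more in the libraries of females and at 16.8 units or less in those of males, as labelled in 15 of 15.

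Apoe itself followed the labels. It stood at 12.3, 6.96, 5.98 and 2.16 units in the 4 HC libraries and at 9.80, 7.54 and 5.98 units in the 3 HC/HT libraries, against 609, 318, 56.6 and 384 units in HT and 1012, 1014, 620 and 398 units in CON. Every knockout library lay below every intact library, and HT replicate 3 was the lowest of the intact ones.

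The tissue is a mixture of cells, so that fewer cells of a type and less RNA per cell cannot be told apart in any value given here. Markers of macrophages moved with Apoe status. The summed level of 15 macrophage genes, among them Cd68, Lyz2 and Csf1r, lay between 2273 and 4997 units in knockout libraries, against 240 to 1713 units in intact libraries. Lyz2 made up much of this sum, with a mean of 2043 units in HC, where the sum averaged 3776 units. The mean of log2(level + 1) over the 15 genes overlapped, with a lowest knockout value of 6.06 and a highest intact value of 6.07. None of the 15 was at 0 in every library. Of the intact libraries HT replicate 1 had the highest macrophage sum, at 1713 units, and HT replicate 3 the lowest, at 240 units. Markers of valve interstitial cells, 6 genes, summed to between 5053 and 14514 units in knockout libraries, against 4336 to 15342 units in intact libraries, so these ranges overlapped. Markers of cardiomyocytes, 5 genes, summed to between 154 and 1132 units in knockout libraries, against 350 to 10557 units in intact libraries, with the top value in HT replicate 2.

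The starts of some of the 8 genes are shown first, as a description. RefSeq promoter windows on GRCm38.p6 (mm10), each with 250 bases before the start site and 50 from it on, were found for 7 of the 8 genes, 10 windows in all. Atp6v0d2 had none. Printed 5′ to 3′ on the strand of the gene are the window of Gpnmb at chr6:49036268-49036567 (plus strand), that of Trem2 at chr17:48346151-48346450 (plus strand), that of Cd5l at chr3:87357631-87357930 (plus strand) and 1 of the 3 windows of Acp5, at chr9:22130549-22130848 (minus strand). Gpnmb and Trem2 are shown because each holds a match to the motif TGANTCA near the start. Cd5l is shown because its gap between genotypes was the widest, and Acp5 because it alone matched CATGTG. Capitals mark matches on either strand to the 5 motifs described after the sequences, and no match overlaps another.
Gpnmb: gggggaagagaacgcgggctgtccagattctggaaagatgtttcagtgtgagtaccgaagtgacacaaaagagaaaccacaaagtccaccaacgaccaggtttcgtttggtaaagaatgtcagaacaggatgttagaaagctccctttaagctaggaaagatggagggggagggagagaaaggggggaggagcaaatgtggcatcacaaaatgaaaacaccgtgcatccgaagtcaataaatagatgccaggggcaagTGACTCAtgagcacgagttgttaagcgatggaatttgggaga
Trem2: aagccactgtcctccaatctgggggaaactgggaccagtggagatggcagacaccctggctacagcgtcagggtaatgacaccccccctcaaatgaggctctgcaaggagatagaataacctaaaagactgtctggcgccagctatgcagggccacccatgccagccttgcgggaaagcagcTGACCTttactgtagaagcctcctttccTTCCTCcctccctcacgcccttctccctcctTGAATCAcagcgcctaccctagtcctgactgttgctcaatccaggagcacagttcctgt
Cd5l: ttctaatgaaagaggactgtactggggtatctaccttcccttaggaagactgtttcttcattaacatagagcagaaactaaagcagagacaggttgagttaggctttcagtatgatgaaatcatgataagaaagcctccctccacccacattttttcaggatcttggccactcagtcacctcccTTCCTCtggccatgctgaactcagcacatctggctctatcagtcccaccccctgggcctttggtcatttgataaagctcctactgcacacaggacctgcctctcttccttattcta
Acp5: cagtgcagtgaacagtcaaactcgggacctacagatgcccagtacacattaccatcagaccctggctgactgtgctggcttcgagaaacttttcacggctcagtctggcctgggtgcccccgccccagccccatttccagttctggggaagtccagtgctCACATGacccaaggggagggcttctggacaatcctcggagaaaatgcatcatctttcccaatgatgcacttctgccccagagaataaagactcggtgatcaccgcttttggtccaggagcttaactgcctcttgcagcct

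The motifs searched on both strands were CACGTG, the E-box bound by TFEB and related lysosomal factors, and CATGTG, a variant bound by MITF, TGANTCA, the AP-1 site, GAGGAA, the core of the PU.1 site, and AGGTCA, the core sequence bound by nuclear receptors. TGANTCA stood in 2 of the 7 genes with a window, as TGACTCA beginning 8 bases after the Gpnmb start site and as TGAATCA beginning 9 bases before the Trem2 start site, and in 7.81% of all 32851 RefSeq promoter windows. GAGGAA stood in 3 of the 7, beginning 66 bases before the Cd5l start, 40 before the Trem2 start and 173 before 1 of the Galnt6 starts, and in 28.3% of all windows. CATGTG stood in 1 of the 7, 90 bases before the printed Acp5 start, and in 14.2% of all windows. AGGTCA stood in 1 of the 7, 68 bases before the Trem2 start, and in 16.3% of all windows. CACGTG stood in 0 of the 7 and in 7.15% of all windows, which says only that these letters are not in these windows. The percentages count windows and not genes. Of the 10 windows of these genes, TGANTCA stood in 2, GAGGAA in 3, CATGTG in 1, AGGTCA in 1 and CACGTG in 0. A match is a run of letters and no measurement of binding.

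In all 8 genes each of the 7 knockout libraries lay above each of the 8 intact libraries. Of all 15004 genes tested, 101 (0.673%) showed the same separation. The 8 genes were chosen for standing higher in the knockout groups, so that nothing is read from this count. In what follows ± is the SD over libraries for a level and the SE for a log2 difference. What differs among the genes is the width of the gap, the level and the libraries at either end.

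**Figure D1:**
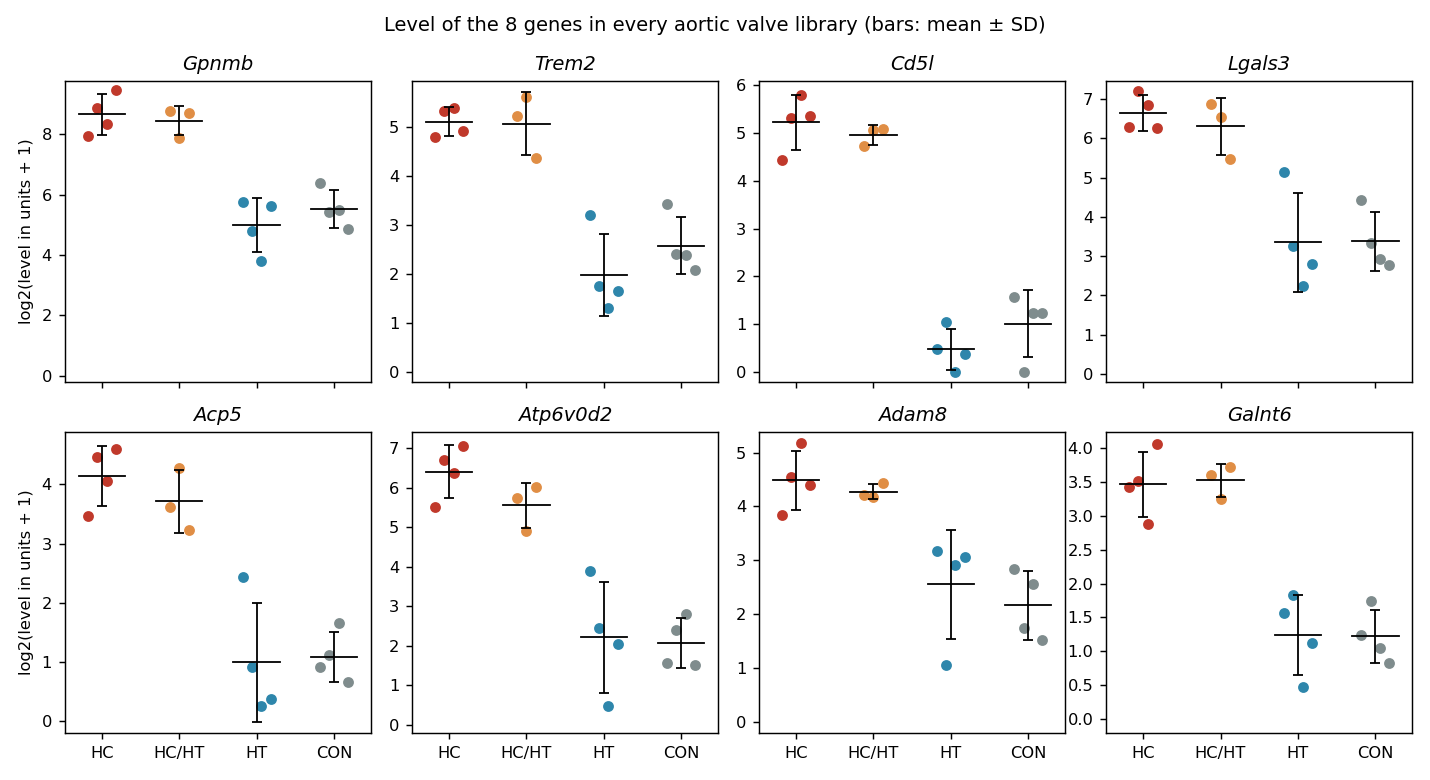
Level of each of the 8 genes in every library, in units on a log2(level + 1) axis, with 1 point per library and a line at the group mean, for HC, HC/HT, HT and CON. In each panel the 7 knockout points lie above the 8 intact points, with the widest gap for Cd5l and the narrowest for Lgals3.

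Among the secreted proteins and receptors, Cd5l had the widest gap. Cd5l (chr3:87357881-87371073, plus strand) encodes a secreted scavenger receptor cysteine-rich protein, also called AIM, that is known in mice to keep lipid-laden macrophages alive and is a target of the oxysterol receptor LXR. It stood at 20.5, 38.4, 54.3 and 40.0 units in HC replicates 1 to 4 and at 25.4, 32.3 and 32.7 units in HC/HT replicates 1 to 3. In HT it was at 0.392, 1.08, 0 and 0.294 units, and in CON at 1.96, 0, 1.37 and 1.37 units. The lowest knockout library was 10.4 times the highest intact one, and 1 HT and 1 CON library had no value above 0. The mean was 38.3 ± 13.9 units in HC (SD, n = 4), against 1.18 ± 0.831 units in CON (SD, n = 4), a ratio of 32.6. With the transgenes in both groups it was 30.1 ± 4.13 units in HC/HT (SD, n = 3), against 0.441 ± 0.456 units in HT (SD, n = 4), a ratio of 68.4 over a mean of a few deposited steps. The fitted log2 difference of the level plus 1 was 4.25 ± 0.44 (SE) for HC against CON and 4.49 ± 0.45 for HC/HT against HT. These were the second largest and the largest positive differences among the 15004 genes in the 2 comparisons.

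Trem2 (chr17:48346401-48354147, plus strand) encodes a surface receptor for lipids and lipoproteins that signals through the adaptor Tyrobp. It stood at 26.6, 39.3, 40.7 and 29.3 units in HC and at 36.5, 47.8 and 19.5 units in HC/HT, against 8.23, 2.35, 1.47 and 2.16 units in HT and 9.70, 4.31, 4.21 and 3.23 units in CON. HC/HT replicate 3 was the lowest knockout library and still 2.01 times the highest intact one, CON replicate 1. HT replicate 1 and CON replicate 1 each stood well apart from the other 3 libraries of their groups. Means were 34.0 ± 7.03 units in HC and 34.6 ± 14.3 units in HC/HT, against 3.55 ± 3.14 units in HT and 5.36 ± 2.93 units in CON. The log2 differences were 2.46 ± 0.44 for HC against CON and 3.06 ± 0.45 for HC/HT against HT.

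Gpnmb (chr6:49036546-49070929, plus strand) encodes a glycoprotein of lysosomes and the cell surface that macrophages make under lysosomal stress. It stood at 244, 472, 322 and 716 units in HC and at 437, 237 and 413 units in HC/HT, against 53.0, 27.0, 12.9 and 47.9 units in HT and 82.8, 42.0, 43.9 and 28.2 units in CON. HC replicate 4 was the highest and HC/HT replicate 2 the lowest of the knockout libraries, and that lowest value was 2.86 times the highest intact value. The mean was 439 ± 208 units in HC, against 49.2 ± 23.4 units in CON, a log2 difference of 3.13 ± 0.46. It was 362 ± 109 units in HC/HT, against 35.2 ± 18.6 units in HT, a log2 difference of 3.47 ± 0.47.

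Lgals3 (chr14:47367751-47386160, plus strand) encodes galectin-3, a galactoside-binding lectin that is secreted by macrophages and gathers at damaged lysosomes. It stood at 77.3, 147, 114 and 76.4 units in HC and at 117, 93.1 and 43.8 units in HC/HT, against 34.3, 8.52, 3.72 and 5.98 units in HT and 20.8, 9.11, 6.66 and 5.88 units in CON. The gap was the narrowest of the 8, because HC/HT replicate 3 at 43.8 units was 1.28 times HT replicate 1 at 34.3 units. Without HT replicate 1 that ratio was 2.11. Means were 104 ± 33.7 units in HC and 84.7 ± 37.4 units in HC/HT, against 13.1 ± 14.2 units in HT and 10.6 ± 6.91 units in CON. The log2 differences were 3.20 ± 0.59 for HC against CON and 2.92 ± 0.60 for HC/HT against HT.

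The 2 genes shared with osteoclasts come next. Atp6v0d2 (chr4:19876841-19922605, minus strand) encodes a form of the d subunit of the V-ATPase, the proton pump that acidifies lysosomes, which is used by osteoclasts and macrophages in place of the widespread form made from Atp6v0d1. It stood at 44.2, 103, 81.3 and 132 units in HC and at 52.5, 28.9 and 63.2 units in HC/HT, against 13.8, 4.51, 0.392 and 3.13 units in HT and 1.96, 4.31, 5.98 and 1.86 units in CON. Its highest knockout library, HC replicate 4, was 4.57 times its lowest, HC/HT replicate 2, the widest spread among the 8 in knockout mice. Means were 90.1 ± 37.0 units in HC, against 3.53 ± 1.99 units in CON, a log2 difference of 4.05 ± 0.57. They were 48.2 ± 17.5 units in HC/HT, against 5.46 ± 5.82 units in HT, a log2 difference of 3.24 ± 0.58.

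Acp5 (chr9:22126727-22135711, minus strand) encodes tartrate-resistant acid phosphatase, a lysosomal enzyme used as a stain for osteoclasts and also made by tissue macrophages. It stood at 10.1, 21.0, 15.6 and 23.3 units in HC and at 11.4, 18.5 and 8.42 units in HC/HT, against 4.41, 0.882, 0.196 and 0.294 units in HT and 0.882, 1.18, 2.16 and 0.588 units in CON. The lowest knockout library was 1.91 times HT replicate 1, and 3.91 times the highest of the other intact libraries. Means were 17.5 ± 5.90 units in HC and 12.8 ± 5.19 units in HC/HT, against 1.44 ± 2.00 units in HT and 1.20 ± 0.680 units in CON. The log2 differences were 2.87 ± 0.48 for HC against CON and 2.66 ± 0.49 for HC/HT against HT.

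The last 2 genes act on proteins at the surface or on their way to it. Adam8 (chr7:139978932-139992562, minus strand) encodes a membrane-anchored metalloprotease of myeloid cells that cleaves adhesion molecules and receptors. It stood at 13.3, 22.4, 35.1 and 19.98 units in HC and at 17.5, 17.0 and 20.6 units in HC/HT, against 8.03, 1.08, 6.56 and 7.35 units in HT and 6.17, 2.35, 4.90 and 1.86 units in CON. Only HT replicate 2 was low in HT, and the other 3 HT libraries stood above all 4 CON libraries. Means were 22.7 ± 9.10 units in HC and 18.4 ± 1.91 units in HC/HT, against 5.75 ± 3.18 units in HT and 3.82 ± 2.06 units in CON. The log2 difference was 2.53 ± 0.46 for HC against CON and 1.79 ± 0.47 for HC/HT against HT, where it was the smallest of the 8.

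Galnt6 (chr15:100691813-100729376, minus strand) encodes a Golgi enzyme that adds the first sugar, N-acetylgalactosamine, of mucin-type O-glycans. It stood at 9.70, 10.4, 6.37 and 15.6 units in HC and at 11.2, 8.52 and 12.1 units in HC/HT, against 1.96, 2.55, 0.392 and 1.18 units in HT and 1.37, 2.35, 1.08 and 0.784 units in CON. All 8 intact libraries were under 3 units, at levels that rest on few deposited steps. The lowest knockout library was 2.50 times the highest intact one. Means were 10.5 ± 3.81 units in HC and 10.6 ± 1.87 units in HC/HT, against 1.52 ± 0.938 units in HT and 1.40 ± 0.680 units in CON. The log2 differences were 2.04 ± 0.42 for HC against CON, the smallest of the 8 in that comparison, and 2.21 ± 0.43 for HC/HT against HT.

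Genes on the other strand share exon bases with Acp5 (6530413G14Rik), Adam8 (Gm16201) and Galnt6 (Galnt6os) in the mm10 annotation. The sources used here do not say whether the counting used the strand, so reads of these pairs cannot be told apart.

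**Figure D2:**
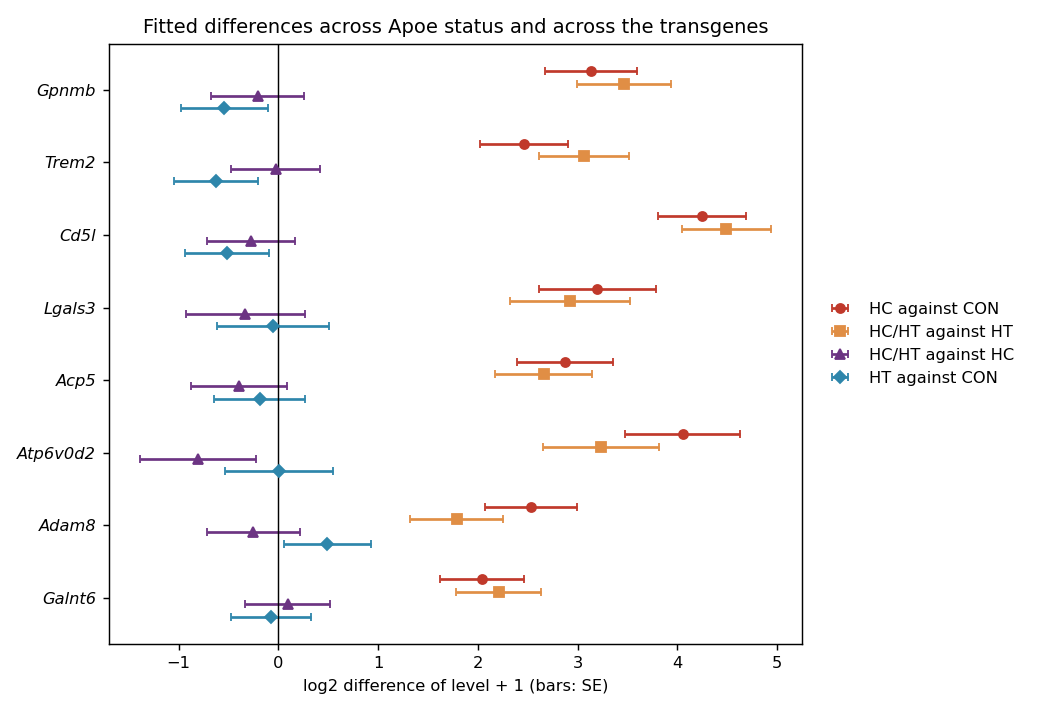
Fitted log2 difference of level + 1 (x axis, bars are the SE) of each of the 8 genes for HC against CON, HC/HT against HT, HC/HT against HC and HT against CON. The differences by Apoe status lie between 1.79 and 4.49, and those across the transgenes lie between -0.81 and 0.49.

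Whether the hypertension transgenes moved the 8 genes was tested within each Apoe genotype by limma with Benjamini-Hochberg adjustment over 15004 genes. None of the 8 passed in HC/HT against HC, nor in HT against CON. None of all 15004 genes passed in either comparison (0%), while 661 and 1922 of them had an unadjusted p under 0.05, none of the 8 genes among them. In HC/HT against HC the log2 difference was negative for 7 of the 8 genes, with a median of -0.26, beside 69.4% of all genes negative with a median of -0.18. Atp6v0d2 had the largest, at -0.81 (95% interval -2.02 to 0.40, adjusted p = 0.984), with 48.2 ± 17.5 units in HC/HT and 90.1 ± 37.0 units in HC. Trem2 had the smallest, at -0.03 (95% interval -0.94 to 0.88, adjusted p = 0.999), and stood at 0.16 with median-of-ratios factors. Gpnmb was at -0.21 (-1.18 to 0.76), Cd5l at -0.27 (-1.18 to 0.63), Lgals3 at -0.33 (-1.60 to 0.93), Acp5 at -0.40 (-1.39 to 0.59), Adam8 at -0.25 (-1.20 to 0.70) and Galnt6 at 0.09 (-0.78 to 0.96). Each of the 8 intervals holds 0 and also holds a difference of 0.40 or more in both directions, so none shows that the groups are alike.

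In HT against CON the log2 difference was negative for 6 of the 8, with a median of -0.13, beside 86.7% of all genes negative with a median of -0.42. Trem2 was at -0.63 (95% interval -1.49 to 0.23, adjusted p = 0.452), Gpnmb at -0.54 (-1.46 to 0.38, adjusted p = 0.517) and Cd5l at -0.52 (-1.37 to 0.34, adjusted p = 0.513). Adam8 was at 0.49 (-0.41 to 1.39, adjusted p = 0.546) and Atp6v0d2 at 0.01 (-1.14 to 1.15, adjusted p = 0.996). Lgals3 was at -0.06 (-1.25 to 1.13), Acp5 at -0.19 (-1.12 to 0.74) and Galnt6 at -0.07 (-0.89 to 0.74). With median-of-ratios factors the median of all genes was -0.01 in this comparison, and the 8 genes lay between -0.41 for Cd5l and 0.85 for Adam8, with Lgals3 at 0.36 and Galnt6 at 0.19 then positive.

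The interaction, which asks whether the difference by Apoe status is larger or smaller with the transgenes, did not pass for any of the 8 by limma (smallest adjusted p = 0.9998). It passed for 0 of 15004 genes (0%), with 207 at an unadjusted p under 0.05. The estimates ran from -0.81 for Atp6v0d2 (95% interval -2.49 to 0.86) and -0.74 for Adam8 (-2.05 to 0.57) to 0.60 for Trem2 (-0.66 to 1.86). For Atp6v0d2 the difference by Apoe status was 3.24 with the transgenes and 4.05 without them, for Adam8 1.79 with and 2.53 without, and for Trem2 3.06 with and 2.46 without.

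Sex was not balanced, with 5 of 7 knockout libraries and 3 of 8 intact libraries labelled female, and entered the fit as a term. No member passed for female against male by limma (smallest adjusted p = 0.9999), beside 6 of 15004 genes (0.0400%). The widest estimates were 0.56 for Atp6v0d2 (95% interval -0.33 to 1.45), 0.41 for Galnt6 (-0.23 to 1.05) and -0.41 for Adam8 (-1.11 to 0.29).

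The libraries at either end differed among the 8 genes. Of the 7 knockout libraries HC replicate 4 was the highest for Gpnmb, Acp5, Atp6v0d2 and Galnt6, HC replicate 3 for Cd5l and Adam8, HC replicate 2 for Lgals3 and HC/HT replicate 2 for Trem2. HC replicate 1 was among the lowest 2 knockout libraries for 6 of the 8. Of the 8 intact libraries HT replicate 1 was the highest for Lgals3, Acp5, Atp6v0d2 and Adam8, and CON replicate 1 for Gpnmb, Trem2 and Cd5l. HT replicate 3 was the lowest intact library for 7 of the 8, tied at 0 with CON replicate 2 for Cd5l. With median-of-ratios factors HC replicate 1 was the lowest knockout library for 5 of the 8 and HC replicate 4 the highest for 5. On that scale CON replicate 1 was the highest intact library for 1 gene, Gpnmb, and HT replicate 3, the lowest for the same 7 genes, was the highest for Adam8. HT replicate 1 and HT replicate 3 were also the intact libraries with the highest and the lowest macrophage sums, and the part of macrophage content in these levels was not tested.

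Since macrophage genes as a whole stood higher in knockout libraries, each gene was set beside them. The log2 of its level plus 1, less the mean of the same over the 15 macrophage genes, was taken in every library as a description. The 8 genes were picked for standing higher in knockout mice. A rise beyond that of the 15 may follow from this choice, and nothing is read from it. The mean of the 15 was itself higher by 1.36 in HC than in CON and by 1.82 in HC/HT than in HT. Relative to that mean, all 8 genes stood higher in HC than in CON, by 2.97 for Atp6v0d2, 2.85 for Cd5l, 1.92 for Lgals3, 1.76 for Gpnmb, 1.70 for Acp5, 1.18 for Trem2, 0.97 for Adam8 and 0.89 for Galnt6. In HC/HT less HT, 7 of the 8 stood higher, by 2.66 for Cd5l, 1.64 for Gpnmb, 1.52 for Atp6v0d2, 1.27 for Trem2, 1.13 for Lgals3, 0.91 for Acp5 and 0.46 for Galnt6, while Adam8 was at -0.10. After this subtraction the knockout and intact libraries were still apart for 2 genes, Cd5l and Gpnmb. Cd5l lay between -1.84 and -1.19 in knockout libraries, against -5.59 to -3.00 in intact ones, and Gpnmb between 1.10 and 2.94, against -0.31 to 0.94. The other 6 overlapped. The added 1 shrinks differences of low genes more than those of most macrophage genes, so order and overlap may depend on it. Where Cd5l was at 0, its relative value is only minus the macrophage mean, at -3.41 in HT replicate 3 and -5.18 in CON replicate 2. For Adam8 the 2 highest relative values of all 15 libraries belonged to HT replicates 3 and 4, at -0.49 and -1.71.

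**Figure D3:**
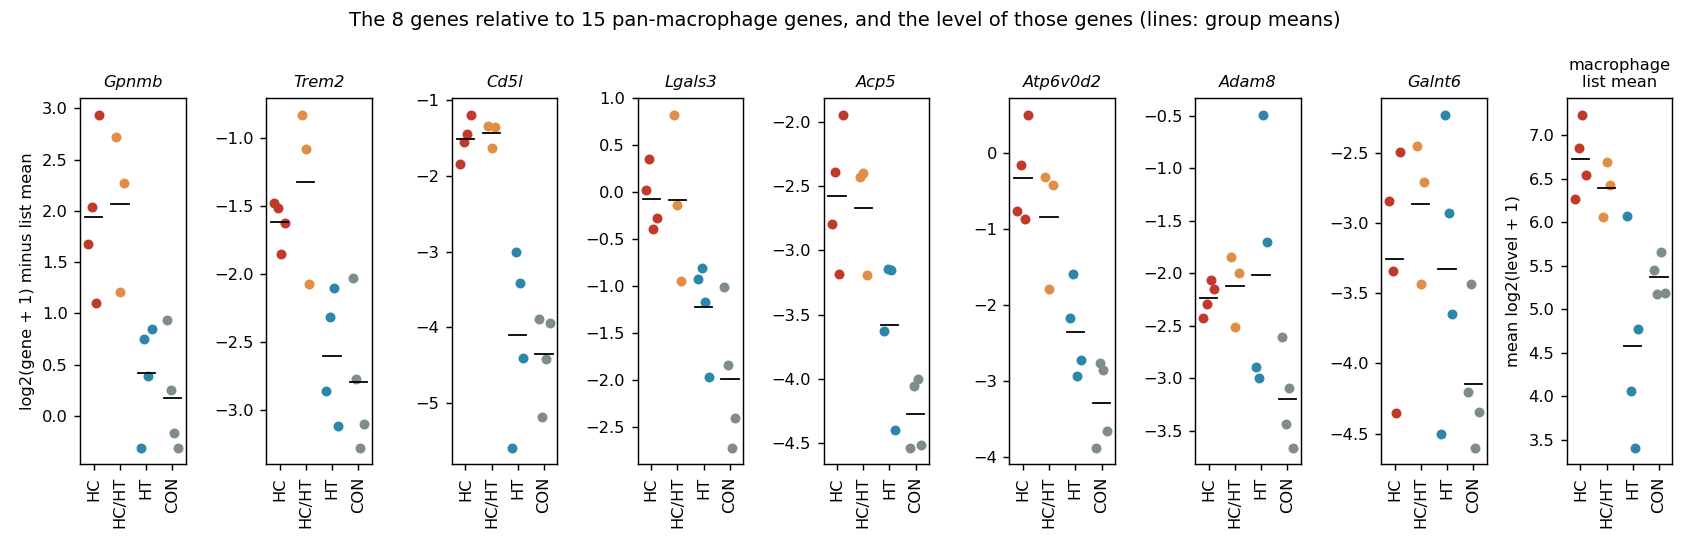
The first 8 panels show the log2(level + 1) of a gene minus the mean of 15 macrophage genes in the same library, and the last panel that mean itself, with 1 point per library and lines at group means. For Cd5l and Gpnmb the knockout and intact points stay apart, and for Adam8 the HT points reach above the knockout points.

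The other genes of the same programme were taken from lists, which were chosen with earlier results of these data known. Counts over the lists are therefore a description and no independent support. Of 24 further lipid-laden macrophage genes, 4 rose in HC against CON by limma with Benjamini-Hochberg adjustment, beside 16 of 15004 genes that rose in all (0.107%). The 16 include the 8 foam cell genes, which were picked for this difference. Of the 24 differences 23 were positive, with a median of 1.29. Abcg1, which exports cholesterol to high-density lipoprotein, rose by 2.72 ± 0.38 on the log2 scale (adjusted p = 3.00e-04). Mmp12, the macrophage elastase, rose by 2.97 ± 0.48 (adjusted p = 0.00630). Abca1, which exports cholesterol to apolipoprotein A-I, rose by 1.73 ± 0.34 (adjusted p = 0.0169), and Spp1, the secreted phosphoprotein osteopontin, by 6.19 ± 0.99 (adjusted p = 0.0450). Abcg1 passed under 25 of 25 alternative settings, Mmp12 under 23, Abca1 under 21 and Spp1 under 11. Spp1 lost its call without any one of HC replicates 2 to 4, of the HC/HT or CON replicates, or of HT replicate 2, and with a pseudocount of 0.25, the replicate block or only the groups compared. Mmp12 lost it without CON replicate 2 or 4, with an adjusted p of up to 0.119, and Abca1 without HC replicate 2 or 3 or CON replicate 2, with an adjusted p of up to 0.292, or without the filter.

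In HC/HT against HT, 5 of the 24 rose, beside 48 of 15004 genes that rose in all (0.320%) and 8 that fell (0.0533%), and 22 differences were positive with a median of 1.51. The 48 include 7 of the 8 foam cell genes, which were picked for standing higher in knockout mice, so nothing is read from that number. With median-of-ratios factors 25 of all genes rose and 12 fell, and with quantile normalisation 32 rose and 13 fell. The 5, with their log2 differences, were Abcg1 (2.62 ± 0.39, adjusted p = 0.000751), Abca1 (1.85 ± 0.34, adjusted p = 0.0128), Plin2, which coats lipid droplets (1.95 ± 0.40, adjusted p = 0.0296), Lipa, the lysosomal acid lipase (1.53 ± 0.35, adjusted p = 0.0467), and Ctsd, a lysosomal protease (1.76 ± 0.41, adjusted p = 0.0491). Abcg1 again passed under 25 of 25 alternatives, Abca1 under 22, Plin2 under 19, Lipa under 10 and Ctsd under 9. Abca1 lost its call without HC/HT replicate 1 or HT replicate 2. Plin2 lost it without HC/HT replicate 1 or 2 or HT replicate 2, 3 or 4. Lipa kept its call in 3 of 15 omissions of 1 library, those of HC replicate 4, HT replicate 1 and CON replicate 4. Ctsd kept it in 5, the same 3 and those of HC/HT replicate 3 and CON replicate 1. Without the filter Abca1, Plin2, Lipa and Ctsd lost their calls, and Ctsd lost it with median-of-ratios factors too. In 9 of the 24, among them Abcg1, Plin2 and the cathepsin genes Ctsb, Ctsd and Ctsl, every knockout library lay above every intact one, beside 0.673% of all genes. Abcg1 averaged 73.1 ± 17.7 units in HC and 56.6 ± 1.13 units in HC/HT, against 8.79 ± 4.49 units in HT and 10.1 ± 4.56 units in CON. Fabp4, a fatty acid-binding protein of fat cells, endothelium and macrophages, was at -0.60 for HC against CON and -0.04 for HC/HT against HT, and neither passed.

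Of 8 LXR receptors and targets, Abca1 and Abcg1 among them, 2 passed in each comparison, both of these transporters, and the medians were 0.25 for HC against CON and 0.62 for HC/HT against HT. Cd5l is a further target of LXR that is counted here with the 8 genes.

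Of 15 macrophage genes, all 15 differences were positive in both comparisons, with medians of 1.23 for HC against CON and 1.61 for HC/HT against HT. Of all genes 47.3% were positive in the first of these comparisons and 69.5% in the other. None of the 15 passed in HC against CON. In HC/HT against HT 4 rose, beside 0.320% of all genes. On the log2 scale these were Cd68 by 2.37 ± 0.42 (adjusted p = 0.0125), Lyz2 by 2.66 ± 0.52 (adjusted p = 0.0338), Laptm5 by 2.13 ± 0.43 (adjusted p = 0.0338) and Cd53 by 1.91 ± 0.42 (adjusted p = 0.0467). Cd68 averaged 94.2 ± 15.5 units in HC/HT, against 21.1 ± 16.4 units in HT, and lost its call without HC/HT replicate 1 or 2 or HT replicate 2. Lyz2 lost its call without any one of the HC/HT libraries, HT replicate 2 or 4 or CON replicate 4. Laptm5 lost it without any one of the HC/HT libraries or of HT replicates 2 to 4. Cd53 kept it in 6 of 15 omissions, those of HC replicates 2 and 4, HT replicate 1 and CON replicates 1, 2 and 4. Lyz2, Laptm5 and Cd53 also lost their calls with median-of-ratios factors, with quantile normalisation and without the filter, Lyz2 with the replicate block and array weights as well, and Cd53 with a pseudocount of 0.25. Cd68 lost it without the filter. In 5 of the 15 every knockout library lay above every intact one, beside 0.673% of all genes.

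Genes of resident tissue macrophages, 7 in all, showed mostly negative differences in HC mice. They were positive for 1 of 7 in HC against CON, with a median of -0.70, and for 3 of 7 in HC/HT against HT, with a median of -0.02, and none passed. Lyve1, a hyaluronan receptor of resident macrophages and lymphatic vessels, was at -1.80 for HC against CON and -2.33 for HC/HT against HT. The summed level of these 7 lay between 86.5 and 312 units in knockout libraries, against 33.1 to 429 units in intact libraries.

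Each of the 8 genes was next set beside its own family, as given by the tested members of a list. The 8 were picked for standing high in knockout mice and the family genes were not, so a larger difference follows from the choice and nothing is read from it. For 8 genes of the adaptor and signalling chain of Trem2 the medians were 0.65 for HC against CON and 1.16 for HC/HT against HT. Tyrobp, the adaptor, averaged 135 ± 44.3 units in HC and 104 ± 59.7 units in HC/HT, against 33.1 ± 37.6 units in HT and 39.9 ± 14.3 units in CON. Syk, the kinase that binds the phosphorylated adaptor, rose by 1.70 ± 0.37 in HC/HT against HT by limma (adjusted p = 0.0342), and was the 1 gene of the 8 to pass. Syk lost its call without HC replicate 3, any one of the HC/HT libraries or of HT replicates 2 to 4, with median-of-ratios factors or quantile normalisation, and without the filter. Of 5 other TREM receptors 3 could be tested, and none passed.

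For Atp6v0d2, 18 of 19 other V-ATPase subunit and accessory genes could be tested, and their medians were 0.30 for HC against CON and 0.84 for HC/HT against HT. Atp6v0d1, the widespread form of the same subunit, was at 40.2 ± 2.15 units in HC, against 34.8 ± 6.98 units in CON (log2 difference 0.08, adjusted p = 1.00 by limma). It was at 37.2 ± 8.40 units in HC/HT, against 21.6 ± 11.5 units in HT (0.82, adjusted p = 0.478). Tcirg1, the a3 subunit of lysosomes and osteoclasts, rose by 1.97 ± 0.42 in HC/HT against HT (adjusted p = 0.0338) and was the only one of the 18 to pass. It lost its call without HC/HT replicate 1 or 2 or HT replicate 2 or 3, with median-of-ratios factors, quantile normalisation or array weights, and without the filter.

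Acp5 and Atp6v0d2 are osteoclast genes, and 11 of 14 others on that list could be tested. Tcirg1 was again the only one to pass, in HC/HT against HT, and the medians were 0.35 for HC against CON and 0.58 for HC/HT against HT. Ctsk, the collagen-degrading cathepsin of osteoclasts, averaged 25.7 ± 9.52 units in HC and 13.3 ± 6.68 units in HC/HT, against 8.52 ± 5.98 units in HT and 14.0 ± 4.35 units in CON. None of 7 genes of the MiT/TFE factors and their lysosomal signalling passed in either comparison, and Mitf, whose product binds the CATGTG form of the E-box, was at 0.05 ± 0.37 for HC against CON and 0.33 ± 0.38 for HC/HT against HT.

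The families of Lgals3, Adam8, Galnt6 and Cd5l held no gene that passed in either comparison. The medians in HC against CON were 0.12 over 5 other galectins, 0.19 over 11 other ADAM proteases, 0.00 over 12 other GalNAc transferases and -0.03 over 6 other genes with scavenger receptor cysteine-rich domains. In HC/HT against HT they were 0.59 over the galectins, 0.38 over the ADAM proteases, 0.11 over the GalNAc transferases and 0.27 over the last family. Lgals1, which encodes galectin-1, averaged 138 ± 78.9 units in HC and 92.5 ± 56.1 units in HC/HT, against 58.2 ± 53.5 units in HT and 110 ± 78.8 units in CON, and its groups overlapped. The highest among those 6 was Msr1, the macrophage scavenger receptor for modified lipoprotein, at 1.04 for HC against CON and 2.22 for HC/HT against HT, and neither passed.

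**Figure D4:**
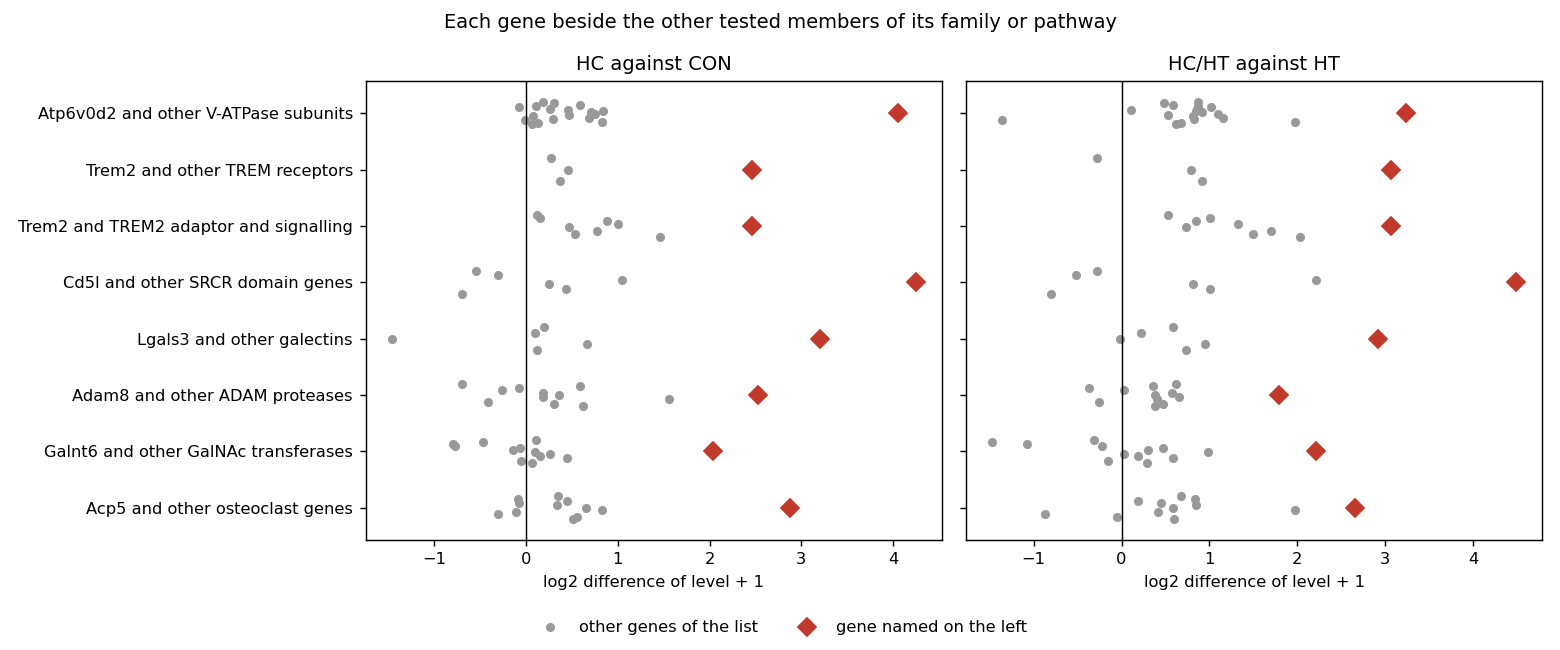
Fitted log2 difference of level + 1 for HC against CON and HC/HT against HT, with 7 of the 8 genes (diamonds) beside the other tested members of their family or pathway (circles). Each diamond lies to the right of every circle in its row, which follows from how the 8 genes were picked.

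Gpnmb is also made by melanocytes, which valve leaflets can hold, and so its paralogue Pmel and other pigment cell genes were looked at. The summed level of 9 melanocyte genes, 7 of them tested, lay between 84.2 and 281 units in knockout libraries, against 24.7 to 210 units in intact ones, so the ranges overlapped. No melanocyte gene passed in HC against CON. In HC/HT against HT, Pmel rose by 2.08 ± 0.44 (adjusted p = 0.0338 by limma) and Tyrp1, a pigment enzyme, by 2.37 ± 0.49 (adjusted p = 0.0343). Pmel averaged 22.0 ± 10.0 units in HC/HT, against 4.41 ± 2.01 units in HT, and 14.2 ± 5.11 units in HC, against 13.5 ± 5.86 units in CON. Pmel lost its call without HC/HT replicate 1 or 2 or HT replicate 2 or 4. Tyrp1 lost it without either of those HC/HT replicates, HC replicate 1 or any one of HT replicates 2 to 4, and with median-of-ratios factors or quantile normalisation. Both lost it without the filter. The part of melanocytes in the Gpnmb level was not tested. Neutrophils also make Adam8. Their 7 genes in the table summed to between 18.8 and 76.2 units in knockout libraries, against 4.02 to 70.7 units in intact libraries. The highest intact sum was in CON replicate 4. The next, 17.2 units in HT replicate 4, lay below every knockout library. All 5 that could be tested were positive in both comparisons, and none passed. Their medians were 1.05 for HC against CON and 1.60 for HC/HT against HT. The shares positive over all genes were 47.3% and 69.5%. The part of neutrophils in the Adam8 level was not tested.

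Variation within groups was compared between the 8 genes and all others. The measure of likeness was Pearson's r, over 15 libraries and 13980 genes, between a gene's log2 level and the mean of the 8, each less its group mean, on the median-of-ratios scale. It is a description without a p, since the genes were ranked by it and the libraries share their scaling. The median gene had an r of 0.01 and the 99th percentile was 0.68. The 6 most alike were Jpt2, listed under its older symbol HN1L (r = 0.88, Spearman's rho 0.79), Plin2 (0.86, 0.81), Cd68 (0.85, 0.69), Mpeg1, a pore-forming protein of macrophages (0.85, 0.63), Klhl42 (0.84, 0.69) and Ctsb (0.83, 0.76). Without HC replicate 1 and HT replicate 1, the 2 libraries farthest from the median of the 8-gene mean, r lay between 0.72 and 0.80 over 13 libraries. Which genes come first depends on the setting. On the deposited scale Klhl42 was in place 14 and the other 5 in places 1 to 5. With sex removed as well as group, Slfn10-ps was in place 1 (r = 0.89), Mpeg1 in place 8 and Ctsb in place 10. Plin2, Cd68, Mpeg1 and Ctsb also stood apart by Apoe status, while Jpt2 and Klhl42 overlapped and were at 0.31 and -0.21 in HC against CON (adjusted p = 1.00 for each by limma).

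**Figure D5:**
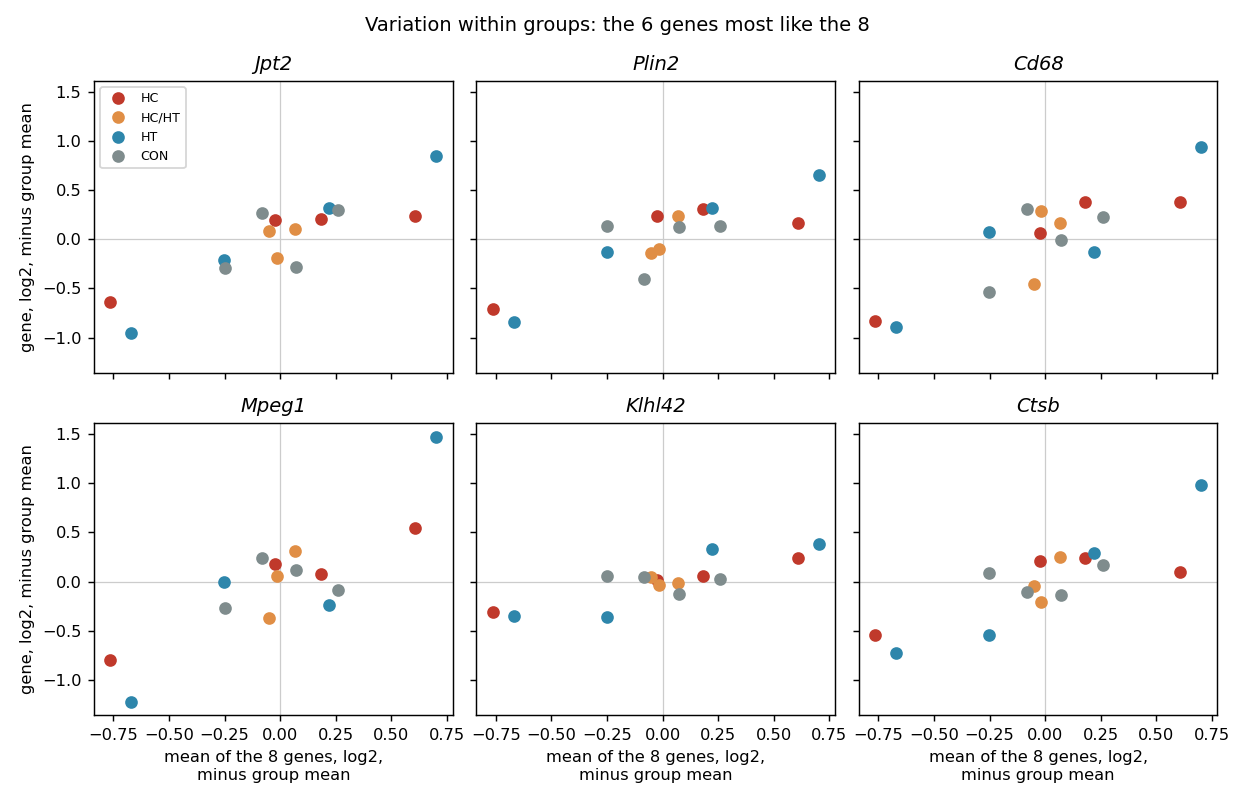
Mean log2(level + 1) of the 8 genes less its group mean (x axis) against the same for each of the 6 most alike genes (y axis), on the median-of-ratios scale, with 1 point per library in the colour of its group. HT replicate 1 lies at the upper right, and HC replicate 1 and HT replicate 3 at the lower left, in each panel.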

How the data were processed

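Per the labels' protocols, RNA of mouse aortic valves was extracted with Trizol, cleaned on a column and freed of DNA. Amplified cDNA came from 1 ng with the Ovation RNA-Seq System v2, and the KAPA hyper prep kit gave the sequencing libraries. FastQC 0.11.2, Bowtie 1.0.1, SAMtools 0.1.9, edgeR (no version) and the build mm10 stand in the submitters' processing notes. How the values were normalised is not stated in the sources at hand. They are a score that the authors deposited in 1 table, whole numbers that look like normalised counts. Totals are nearly equal, so depth is unknown and no counting interval is given. Precision rests on the 3 or 4 libraries of a group. The labels do not say whether a library pools valves of several mice. A column of values without a name in the header (1 in all) was not used.

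Names numbered 20992, of which 17944 were current mouse symbols, 813 were older symbols and 2235 matched nothing. All values were multiplied by 1 factor. The filter kept 15004 genes that reached 1 unit in 4 or more libraries. They were fitted with limma 3.58.1 (R 4.3.3; eBayes, trend and robust) on log2(value + 1), where the 1 is a pseudocount that shrinks the differences of low genes. The 15 libraries were in 1 fit with terms for group and sex. A gene passed at a two-sided Benjamini-Hochberg adjusted p under 0.05 over all genes of the comparison. The fitting script was tested on simulated data.

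The 8 genes and all gene lists were chosen with earlier results of these data known. Named are the 8 genes, list genes that passed, some comparison genes set per list, and the 6 genes most like the 8. Fabp4, Lyve1 and Msr1 were named after their values were seen. Promoter sequences are RefSeq's, on GRCm38.p6, and gene positions are those of GENCODE M21 on mm10. Alternatives tried were median-of-ratios factors, quantile normalisation, no filter, pseudocounts of 0.25 and 4, no sex term, a filter at 5 units, a replicate block, array weights, only the groups compared, and leaving out each library. Likeness without 2 libraries, and the list genes under the same settings, were added after seeing the data.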

Additional observations from a re-analysis of the deposited data

Results flagged for a closer look

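In each group of 4 libraries, the levels of 34 genes named in the text were examined for 1 library that stands far from the other 3, which gave 102 combinations of gene and group. The limit used flags about 1 in 20 groups of independent, normally distributed values, and 12 of the 102 were flagged. The levels were taken without logs, and many of these genes vary together within libraries. No excess over chance is therefore read from the 12. Among the 8 foam cell genes there were 4. In HT replicate 1, Trem2 was at 8.23 units, against 1.47 to 2.35 units in the other HT libraries, Lgals3 was at 34.3 units, against 3.72 to 8.52 units, and Acp5 was at 4.41 units, against 0.196 to 0.882 units. In CON replicate 1, Trem2 was at 9.70 units, against 3.23 to 4.31 units in the other CON libraries.

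Another 3 genes stood far above the other HT libraries in HT replicate 1. Ctsd was at 509 units, against 148 to 210 units, Lipa at 111 units, against 31.4 to 41.7 units, and Cd53 at 56.2 units, against 12.7 to 14.4 units. The sum of macrophage markers was also the highest of HT in that library, and its part was not tested. In CON the flagged values were Spp1 at 23.7 units in replicate 2 (others 1.76 to 4.90), Csf1r at 113 units in replicate 3 (others 79.7 to 84.8) and Jpt2 at 11.9 units in replicate 1 (others 6.86 to 7.64). In CON replicate 4, Syk was at 27.8 units (others 13.2 to 15.1) and Cd53 at 61.8 units (others 25.1 to 29.3).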

How the results depend on the processing

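The separation of knockout from intact libraries held for 8 of the 8 genes with median-of-ratios factors. It held for 7 with quantile normalisation, where the lowest knockout value of Adam8 was 10.1 and the highest intact one 11.3. Leaving out 1 library cannot undo a separation that all libraries show, so the omissions say nothing about it. The differences by Apoe status kept their sign under 25 of 25 alternatives in each of the 8 genes. These genes were picked for a positive difference, so nothing is read from the kept sign. The widest ranges came from the pseudocount: Cd5l ran from 2.98 to 5.16 in HC against CON and from 2.94 to 5.73 in HC/HT against HT, at pseudocounts of 4 and 0.25. No test of the 8 genes across transgenes, interaction or sex passed under any alternative.

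Counts over all genes moved more. HC against CON had 25 calls, and 41 without the sex term, 42 with the replicate block, 316 with array weights, 48 with only the groups compared, and 8 to 51 with 1 library left out. HC/HT against HT had 56, and 37 with median-of-ratios factors, 36 with a pseudocount of 0.25, 8 without the filter, 138 with the block, 29 with array weights, 221 with only the groups compared, and 7 to 260 with 1 library left out. HT against CON had 0, and 1 with the block, 412 with array weights, 208 with only the groups compared, and 0 to 2 with 1 library left out. HC/HT against HC had 0, and 1 with the block, 2 with array weights, and 0 to 3 with 1 library left out. The interaction had 0 throughout. Female against male had 6, 13 with array weights, and 6 to 7 with 1 library left out. The cause was not tested. Whether replicate numbers pair the libraries is not settled by the values. Of 21 same-number pairs 8 had a correlation of deviations over 0.1, with a range of -0.12 to 0.27. The median was 0.07 for same-number pairs and -0.07 for different-number pairs, and 4 of 15 libraries correlated best with their own number.

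Some uncalled differences of the 8 genes changed sign. In HT against CON, Lgals3 was at 0.36 with median-of-ratios factors, 0.39 with quantile normalisation and 0.014 with a pseudocount of 4. Galnt6 was at 0.19, 0.15 and, without the sex term, 0.0275. Atp6v0d2 was at -0.16 with a pseudocount of 0.25, -0.0015 with the block, -0.15 with array weights and -0.18 with only the groups compared. With 1 library left out, Lgals3 ran from -0.59 to 0.39, Acp5 from -0.58 to 0.0505, Atp6v0d2 from -0.43 to 0.64 and Galnt6 from -0.19 to 0.17. In HC/HT against HC, Gpnmb was at 0.11 with quantile normalisation, and Trem2 at 0.16 with median-of-ratios factors and 0.18 with quantile normalisation. With 1 library left out, Gpnmb ran from -0.45 to 0.0896, Trem2 from -0.30 to 0.38, Lgals3 from -0.74 to 0.14, Adam8 from -0.43 to 0.0116 and Galnt6 from -0.14 to 0.32. For the interaction, Cd5l was at -0.0416 with a pseudocount of 4 and Acp5 at 0.10 with 0.25. With 1 library left out, Gpnmb ran from -0.21 to 0.65, Lgals3 from -0.74 to 0.24, Acp5 from -0.47 to 0.16 and Galnt6 from -0.0869 to 0.41. For female against male, Gpnmb was at 0.0624 with the block, Cd5l at 0.0456 with median-of-ratios factors and 0.0091 with quantile normalisation, and, with array weights, Trem2 at -0.0902 and Lgals3 at -0.11. With 1 library left out, Gpnmb ran from -0.31 to 0.12, Trem2 from -0.13 to 0.28, Cd5l from -0.24 to 0.30 and Lgals3 from -0.24 to 0.44.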
